A study of Mus musculus with 8 samples.

Results

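CHD4 occupancy was examined at 9 genes of the Hippo signalling pathway and its nuclear output in mouse atria with and without TBX5. The genes were Tead1, Tead2, Tead3 and Tead4, Yap1, Wwtr1, Vgll4, Lats1 and Lats2. A site was taken for these genes where peaks of the 4 ChIP libraries, merged when they shared at least 1 bp, overlapped the gene body or 10 kb on either side. This gave 241 sites of 121267 in all, and 119 of them were called in both control libraries. CHD4 is the ATPase that drives the NuRD nucleosome remodelling complex. TBX5, a DNA-binding factor of the T-box family, is part of the gene programme of atrial muscle.

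The libraries came from whole dissected atria of mixed cell type. Animals of both groups carried floxed Tbx5 alleles and were injected with an AAV9 vector on postnatal day 2. The TBX5 KO group received Cre recombinase and the control group EGFP, each under Nppa sequence, which is active in atrial cardiomyocytes. Each group had 2 ChIP libraries, called TBX5 KO 1 and 2 and control 1 and 2 here, and the age at collection is not given in the sources used here. The groups follow the titles of the libraries. Other label fields, genotype and treatment, state the opposite of each title, and the treatment text names CHD4 as the deleted gene. If the titles are wrong, every direction given here turns round. Cells of the atria in which the Nppa sequence is inactive would not make Cre, and fewer cells of a type cannot be told apart from less CHD4 per cell. Peaks do not measure expression, so neither the tissue nor the deletion could be checked against marker genes.

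The Hippo pathway restrains growth through a chain of kinases. LATS1 and LATS2 phosphorylate the coactivators YAP, made from Yap1, and TAZ, made from Wwtr1, which keeps them out of the nucleus. Unphosphorylated YAP and TAZ bind the TEAD factors on DNA and raise transcription of genes for proliferation and matrix, while VGLL4 competes with them for TEAD. In heart muscle the pathway is known for limiting cardiomyocyte proliferation, and TEAD1 is known for binding the MCAT element in promoters of muscle genes.

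Start-site sequences are shown first because every start window of these genes in the RefSeq promoter table (build GRCm38.p6) lay at least in part under CHD4 peaks of each library, except 1 Lats2 window in TBX5 KO 2. Tead1 and Tead4 had no entry. The other 7 genes had 11 windows, each running from 250 bases before to 50 bases after a transcription start. The letters GGAATG, the core of the MCAT element that TEAD factors bind, were searched on both strands and stood in 7 of the 11 windows and at 5 of the 7 genes. Such a window was present at 15.5% of the protein-coding genes in the table. Among genes with a window at a site called in all 4 libraries the share was 13.1%. It was 9.99% among genes where such a window had a GC content of at least 60%. Counted by window instead of gene, the shares were 13.6%, 11.7% and 9.21% in that order. The 5 genes with a match are printed below from 5′ to 3′ in the direction of transcription, with the match or its reverse complement in capitals. For Tead3 and Wwtr1, which have several starts, 1 window is shown.
Wwtr1, chr3:57575861-57576160, minus strand: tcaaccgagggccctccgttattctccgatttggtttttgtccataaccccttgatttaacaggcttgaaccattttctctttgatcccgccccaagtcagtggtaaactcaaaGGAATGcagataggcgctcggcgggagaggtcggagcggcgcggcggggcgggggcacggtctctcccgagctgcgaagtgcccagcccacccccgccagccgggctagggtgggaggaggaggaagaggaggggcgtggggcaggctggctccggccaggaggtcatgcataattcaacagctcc
Yap1, chr9:8004547-8004846, minus strand: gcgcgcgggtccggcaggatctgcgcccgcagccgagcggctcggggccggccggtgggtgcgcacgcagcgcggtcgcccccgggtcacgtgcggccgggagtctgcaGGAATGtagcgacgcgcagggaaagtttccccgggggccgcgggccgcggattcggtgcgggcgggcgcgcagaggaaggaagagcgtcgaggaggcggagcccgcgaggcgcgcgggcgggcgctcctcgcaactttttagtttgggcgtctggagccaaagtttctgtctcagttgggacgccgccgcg
Vgll4, chr6:114969154-114969453, minus strand: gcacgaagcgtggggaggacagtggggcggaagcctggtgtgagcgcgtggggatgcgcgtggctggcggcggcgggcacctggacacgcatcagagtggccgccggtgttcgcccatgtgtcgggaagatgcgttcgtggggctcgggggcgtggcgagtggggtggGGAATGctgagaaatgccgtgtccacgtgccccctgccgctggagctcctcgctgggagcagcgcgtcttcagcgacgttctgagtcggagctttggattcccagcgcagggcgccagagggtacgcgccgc
Lats2, chr14:57746074-57746373, minus strand: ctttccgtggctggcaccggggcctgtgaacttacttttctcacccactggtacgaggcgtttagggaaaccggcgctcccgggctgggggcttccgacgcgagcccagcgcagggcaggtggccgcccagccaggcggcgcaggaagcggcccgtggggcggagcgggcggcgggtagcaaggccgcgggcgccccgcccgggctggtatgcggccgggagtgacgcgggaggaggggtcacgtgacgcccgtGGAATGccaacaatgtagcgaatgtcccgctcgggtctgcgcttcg
Tead3, chr17:28350551-28350850, minus strand: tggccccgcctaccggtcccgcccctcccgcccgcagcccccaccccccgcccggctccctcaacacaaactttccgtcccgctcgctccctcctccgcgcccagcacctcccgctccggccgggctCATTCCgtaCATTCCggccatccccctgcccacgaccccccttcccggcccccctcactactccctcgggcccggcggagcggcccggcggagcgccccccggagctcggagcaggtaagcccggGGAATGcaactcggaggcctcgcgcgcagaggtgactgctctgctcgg
The match lay 141 bases before the start at Yap1, 136 at Wwtr1 and 82 at Vgll4, and at Lats2 it lay just after the start. The Tead3 window held 3 matches, of which 2 were on the opposite strand, 123 and 114 bases before the start. The T-box letters AGGTGT, the GATA letters AGATAA and the E-box letters CAGCTG were found in 0 of the 11 windows, against 13.7%, 11.2% and 16.3% of all 32851 windows in the table. The NKX2 letters AAGTG stood in 4 windows, against 46.4% of all, and no match overlapped a match of another motif. The shares for these motifs were not matched for GC content, whose median was 69.7% in the 11 windows and 52.7% in all windows. Some of the 11 windows also overlap each other, so no depletion can be read from these counts. A match of letters is a description, and a window without one says only that these letters are not in it.

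Over the 9 genes together, the TBX5 KO libraries had fewer and shorter peaks. TBX5 KO 1 and 2 had 145 and 164 peaks in the 9 regions, and control 1 and 2 had 196 and 199. The group means were 155 ± 13.4 in TBX5 KO and 198 ± 2.12 in control atria (SD, n = 2 each), a ratio of 0.782, against 0.683 for the full lists of 61173 and 69557 TBX5 KO peaks and 99924 and 91520 control peaks. The groups did not overlap, but 2 libraries against 2 cannot give a p below 0.333 in a two-sided exact permutation test, which is the value obtained here and for covered length and mean peak width below. The pileup ratios given further on have no p. The length under peaks was 105 and 141 kb in the TBX5 KO libraries and 240 and 201 kb in the control libraries, with means of 123 ± 25.9 kb in TBX5 KO and 221 ± 27.4 kb in control atria (SD, n = 2 each), a ratio of 0.558, against 0.572 genome-wide. Mean peak width was 723 and 862 bp in TBX5 KO and 1224 and 1011 bp in control atria. The ratio of covered length at these genes was thus close to that of the genome. The labels do not say whether replicates were separate animals, so the spread may be technical.

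The order of the genes by covered length followed their size only in part. In the control libraries Tead1, Vgll4 and Wwtr1 stood far above the other 6 genes, between 45.0 and 66.3 kb, and Lats2, Yap1 and Tead3 followed between 10.8 and 19.3 kb. Among Tead1, Vgll4 and Wwtr1, and between Lats2 and Yap1, the control libraries overlapped, so these neighbours did not differ beyond their spread, while Tead3 lay below both Lats2 and Yap1. Tead4 with 5.21 and 6.11 kb, and Tead2 and Lats1 with 3.35 to 3.77 kb, were lowest. Vgll4 spans 109 kb, and 24.6% and 32.0% of its body lay under TBX5 KO peaks, against 49.2% and 44.9% under control peaks. By the mean of the control libraries this was place 56 among 4945 protein-coding genes of at least 50 kb, whose medians were 2.59% and 2.31% in control, and by the mean of the TBX5 KO libraries it was place 52. Tead4, at 2.58% and 3.73% in TBX5 KO and 7.40% and 6.07% in control atria, was the least covered of the members of that size.

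**Figure D1:**
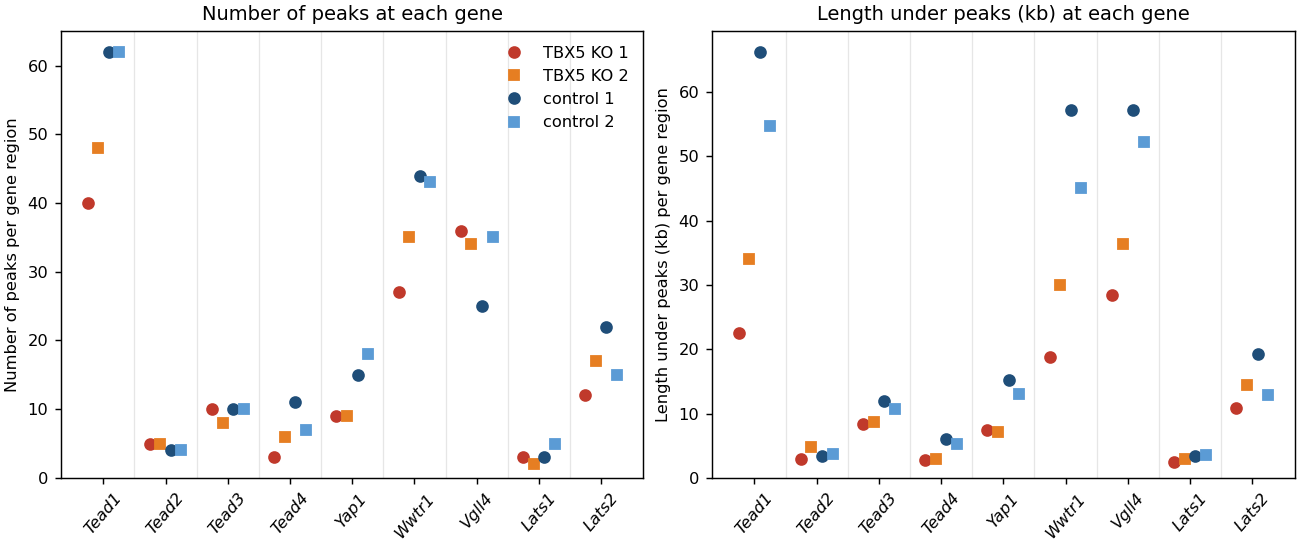
Number of CHD4 peaks (left) and length under peaks in kb (right) in the region of each gene, with 1 point per library. At Tead1 the TBX5 KO libraries have 22.6 and 34.0 kb and the control libraries 66.3 and 54.7 kb, while at Tead2 and Lats2 the groups overlap in length.

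Covered length was lower in both TBX5 KO libraries than in both control libraries at 7 of the 9 genes, the exceptions being Tead2 and Lats2, and it was higher in both at 0. Among all protein-coding gene regions with a site, 71.5% were lower in this way and 1.67% higher. The number of peaks was lower in both at 4 of the 9 (Tead1, Tead4, Yap1 and Wwtr1), against 35.7% of all such regions. Both shares are near the background. At Tead2 the peaks were more numerous, 5 and 5 in TBX5 KO and 4 and 4 in control atria, a direction met at 2.9% of regions. TBX5 KO 1 had 2 peaks at the start site, where the other libraries had 1. TBX5 KO 2 had a peak of percentile 1.86 found in no other library. Both TBX5 KO libraries had a peak at Cd37 beside Tead2, and each control library had 1 peak found in no other library.

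By site, the call patterns of the 9 genes were also close to those of the genome. Control-only sites, with a call in each control library and none in TBX5 KO, numbered 26 of 119 (21.8%, 95% Wilson interval 15.4% to 30.1%, counting error only), against 24.9% of all sites called in both control libraries. Another 70 (58.8%) were called in all 4 libraries, against 55.8% of all sites called in both control libraries. A further 23 were called in 1 of the TBX5 KO libraries, of which 19 were in TBX5 KO 2. The reverse pattern, here TBX5 KO-only, numbered 3 of 80, against 1.91% of all sites called in both TBX5 KO libraries. The remaining sites were called in single libraries (98), in 1 of each group (14), or in both TBX5 KO and 1 control library (7). With TBX5 KO 2, control 1 or control 2 left out in turn, the control-only count was 45 of 119, 60 of 161 and 77 of 183, against 37.8%, 36.0% and 39.9% of all sites. The TBX5 KO-only count was 12 of 117 without TBX5 KO 1, 7 of 93 without TBX5 KO 2 and 9 of 80 without control 1, against 11.5%, 9.18% and 5.07% of all sites. Without the 10 kb flanks the control-only count was 24 of 108, and with 50 kb it was 31 of 157.

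**Figure D2:**
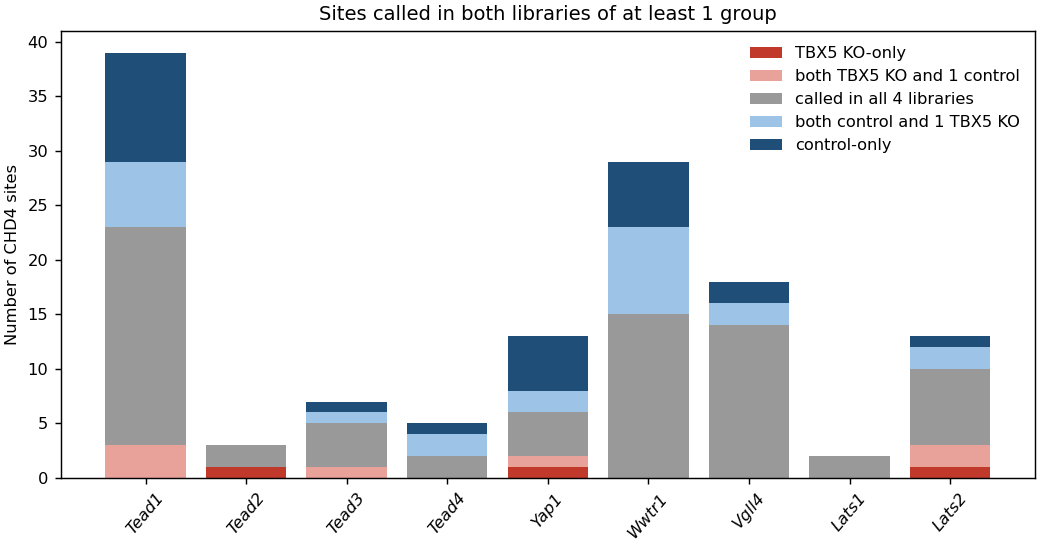
Number of CHD4 sites of each gene by the libraries in which they were called, for sites called in both libraries of at least 1 group. Control-only sites number 10 at Tead1, 6 at Wwtr1 and 5 at Yap1, and 0 at Tead2 and Lats1.

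Control-only calls at these genes came from the weaker sites. Each site was ranked by averaging its −log10 p percentile over control 1 and control 2, where 100 is the strongest peak, and the ranks were split into 10 deciles. In deciles 1 to 5, 26 of 62 sites were control-only (41.9%), against 43.2% of all sites. In deciles 6 to 10, 0 of 57 sites were control-only, against 6.72% of all sites, and 51 of the 57 had calls in every library. Over all sites, calls in every library were found at 4167 of 6814 in decile 6, rising to 6759 of 6814 in decile 10. A count of 0 in 57 allows a share of up to 5.26% (3 counts of the total), and the 95% Wilson interval reaches 6.31%. Decile by decile the 9 genes had 12 control-only sites of 20, 5 of 8, 2 of 15, 3 of 11 and 4 of 8 in deciles 1 to 5, where all sites gave 64.1%, 52.4%, 42%, 32.8% and 24.6%. In deciles 6 to 10 the background was smaller with each step, at 16.8%, 8.62%, 5.68%, 2.05% and 0.426% of all sites. Of sites no more than 1 kb from either end of a coding gene, 0 of 16 sites were control-only, which allows up to 18.8% by the same 3 counts, against 7.22% of all such sites. Inside genes 25 of 97 were control-only, against 31.1% of all, and outside genes 1 of 6, against 26.6%.

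**Figure D3:**
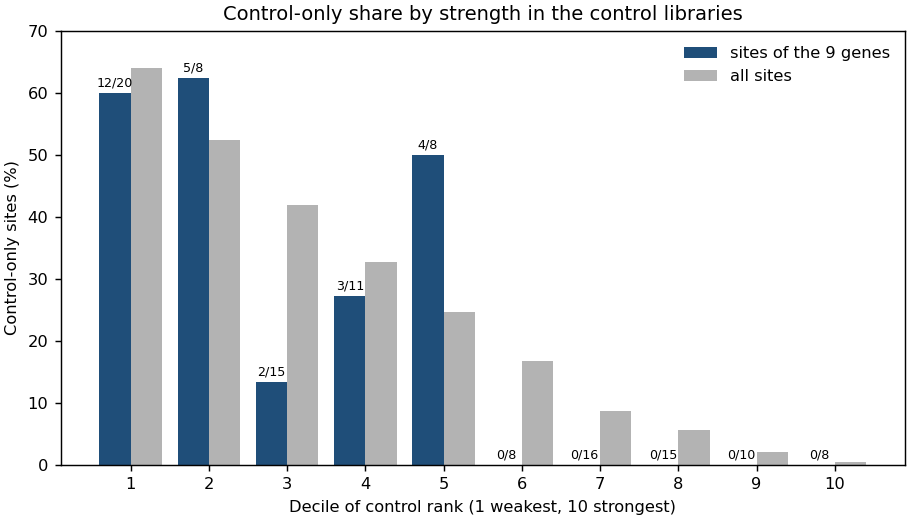
Share of control-only sites among sites called in both control libraries, in %, by decile of control rank, for the 9 genes (blue, with counts) and for all sites (grey). The 9 genes have 4 control-only sites of 8 in decile 5 and 0 of 57 in deciles 6 to 10.

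Tead1, which encodes the TEAD factor named above for muscle promoters, had the most sites, 77, over a gene body of 227 kb (chr7:112679356-112906784, mm10). TBX5 KO 1 and 2 had 40 and 48 peaks there, and control 1 and 2 had 62 and 62. The groups stood apart, and covered length gave a ratio of 0.468. Of 36 sites shared by the control libraries, 10 were control-only (27.8%, 15.8% to 44.0%), 20 were in all 4 libraries and 6 in 1 TBX5 KO library. The strongest site lay at the lower-coordinate end of the gene (chr7:112677783-112681544). Its pileup, the height of the stacked fragments at the summit divided by the background of the library, was 6.92 and 7.38 in TBX5 KO and 14.1 and 12.0 in control atria. The ratio of TBX5 KO to control means was 0.548, near 0.540, the median over decile 10 among sites with a call in every library. All control-only sites of Tead1 lay inside the gene, and the strongest, at chr7:112885340-112886176, had a pileup over background of 3.36 and 3.89 in control. It ranked in decile 5, where 24.6% of all sites were control-only.

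A wide domain within Tead1, singled out after its values were seen, had less length under peaks in both TBX5 KO libraries than in both control libraries. This was so at 57.3% of all sites called in all 4 libraries. At chr7:112752441-112764323, TBX5 KO 1 had 6 peaks covering 2783 bp and TBX5 KO 2 had 8 peaks covering 5730 bp. Control 1 had a single peak of 11883 bp and control 2 had 6 peaks covering 8978 bp. The bounds of the site are those of the control 1 peak, so control 1 covers it in full by construction. Pileup over background was 4.02 and 3.28 in TBX5 KO and 7.22 and 7.50 in control atria, a ratio of 0.496, against a median of 0.579 in decile 9. The summits behind these values lay up to 7483 bp apart, and the control libraries differed in peak number by as much as the groups did.

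The other TEAD genes had few sites. Tead2, which encodes a TEAD factor of early development, lies at chr7:45215792-45233468 and had 0 control-only sites of 2, and its start site (chr7:45215457-45217269) had a pileup over background of 3.74 and 3.58 in TBX5 KO and 5.34 and 4.96 in control atria. Tead3, which encodes a TEAD factor abundant in placenta, lies at chr17:28331671-28350805 and had 1 control-only site of 6, at chr17:28342145-28343090 inside the gene, with a pileup of 2.27 and 2.73 in control. The site over its starts (chr17:28349195-28352361), which holds the Tead3 sequence above and also overlaps the gene Tulp1, had a pileup of 5.71 and 5.59 in TBX5 KO and 8.31 and 8.18 in control atria. A stronger site beyond the other, lower-coordinate end of Tead3 (chr17:28326919-28330600) overlaps Rpl10a, a ribosomal protein gene, and cannot be assigned to Tead3 alone. Its pileup was 7.58 and 8.20 in TBX5 KO and 11.6 and 13.1 in control atria. Tead4, which encodes a TEAD factor of the trophectoderm and of skeletal muscle, lies at chr6:128227143-128300813 and had 1 control-only site of 5, at chr6:128308300-128308649 outside the gene, with a pileup of 3.86 and 3.99 in control. Its strongest site, over the higher-coordinate end of the gene (chr6:128299196-128301735), had 4.96 and 5.15 in TBX5 KO and 7.42 and 7.20 in control atria, and the groups stood apart. A further pair of Tead4 sites was missing from TBX5 KO 1 only. The stronger of them (chr6:128295974-128297065) ranked at percentile 40.4 in TBX5 KO 2 and at 86.2 and 77.8 in control 1 and 2.

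**Figure D4:**
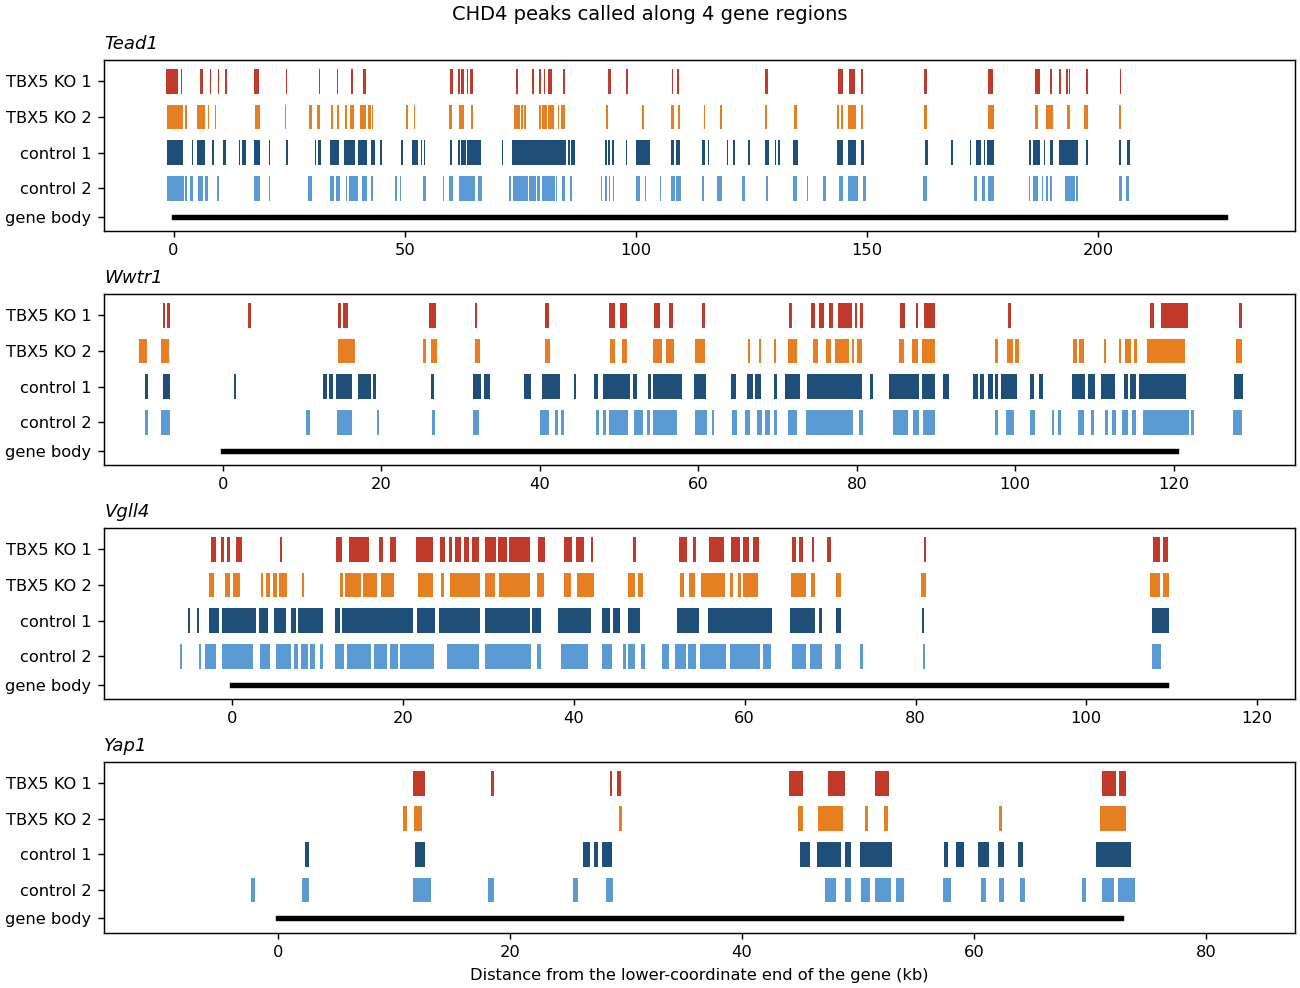
Peaks called in each library along Tead1, Wwtr1, Vgll4 and Yap1, drawn to scale by distance in kb from the lower-coordinate end of the gene, with the gene body as a black bar. At Vgll4 the TBX5 KO libraries have 36 and 34 peaks over 28.5 and 36.4 kb, and the control libraries 25 and 35 peaks over 57.2 and 52.3 kb.

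Among the coactivator genes, Wwtr1 (chr3:57455644-57575910) kept its strongest sites and had a covered length ratio of 0.478. Its region held 18.9 and 30.0 kb of peaks in TBX5 KO and 57.2 and 45.0 kb in control atria. Of 29 sites in both control libraries, 6 were control-only (20.7%, 9.85% to 38.4%) and 15 were in all 4. The strongest control-only site (chr3:57564781-57565751), inside the gene, had a pileup of 3.96 and 4.19 in control and ranked in decile 5. The site over the Wwtr1 starts (chr3:57571252-57577617) contains the window printed above and had the highest control rank of all member sites, at the mean percentile 99.0. Pileup over background there was 8.98 and 9.69 in TBX5 KO and 20.2 and 20.5 in control atria, a ratio of 0.459, against a range of 0.437 to 0.635 for the middle 80% of sites in decile 10. The summits of the 4 libraries lay within 85 bp of each other. The strongest peak was 3434 and 4793 bp wide in TBX5 KO and 5895 and 5838 bp in control atria.

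Inside Wwtr1 a pair of strong sites had a lower ratio than most sites of their rank. At chr3:57529191-57536477 pileup over background was 4.12 and 3.43 in TBX5 KO and 9.10 and 9.34 in control atria, a ratio of 0.409. The site had 6 and 5 peaks in TBX5 KO and 1 and 2 in control atria, and the summits of its strongest peaks lay up to 3601 bp apart. At chr3:57526602-57528422 the ratio was 0.412, with 3.56 and 3.36 in TBX5 KO and 7.81 and 8.96 in control atria. Both were below 0.427, the 10th percentile of decile 9. This pair was singled out after its values were seen. Over its 15 sites called in all 4 libraries the median ratio of Wwtr1 was 0.547, against 0.645 over all such sites. These medians were not matched for control rank. Over all sites called in all 4 libraries the median fell from 0.963 in decile 1 to 0.540 in decile 10. The pileup was lower in both TBX5 KO libraries than in both control libraries at all 15, against 88.2% of all such sites.

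Yap1, which encodes YAP and lies at chr9:7931999-8004638, had the highest share of control-only sites of the 9 genes, 5 of 11 (45.5%), but the Wilson interval of 21.3% to 72.0% includes the 24.9% of all sites, and in lists of equal length the count was 1 of 5. All 5 lay inside the gene, and the strongest (chr9:7934058-7934684) had a pileup over background of 3.86 and 3.31 in control atria. TBX5 KO 1 and 2 had 9 and 9 peaks at Yap1, against 15 and 18 in control 1 and 2, a ratio of 0.545. The start site (chr9:8002516-8005859), with the Yap1 window shown above, was kept in all 4, with a pileup of 5.80 and 4.92 in TBX5 KO and 10.9 and 8.08 in control atria. The lowest ratio among the 70 member sites called in all 4 libraries was also at Yap1, inside the gene. At chr9:7982130-7984903 pileup over background was 2.90 and 2.83 in TBX5 KO and 7.51 and 7.30 in control atria, a ratio of 0.387, below the 10th percentile of 0.473 for decile 8. The site kept its call in both TBX5 KO libraries at percentiles 40.6 and 38.9, against 86.2 and 81.7 in the control libraries. It was singled out after its values were seen, and its summits lay up to 596 bp apart between libraries.

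Vgll4, the gene of the TEAD inhibitor (chr6:114860621-114970007), kept most of its sites but had less length under peaks in TBX5 KO. Of its 18 sites in both control libraries 14 were in all 4, against 55.8% of all such sites. Control-only sites numbered 2 (11.1%, 3.10% to 32.8%). Both control-only sites were weak, in decile 1, and the one at chr6:114903883-114905084 inside Vgll4 had a pileup over background of 2.77 and 3.21 in control. The number of peaks was 36 and 34 in TBX5 KO and 25 and 35 in control atria, so the groups overlapped, while median peak width was 670 and 703 bp in TBX5 KO and 1403 and 1042 bp in control atria. The strongest site (chr6:114872658-114884320) had a pileup over background of 9.26 and 10.1 in TBX5 KO and 17.9 and 20.9 in control atria, a ratio of 0.498.

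The start site of Vgll4 had the highest ratio of the 14 sites of the gene called in all 4 libraries. At chr6:114968102-114970328 pileup over background was 4.77 and 4.77 in TBX5 KO and 4.94 and 4.28 in control atria, so the groups overlapped and the ratio was 1.03. For sites of its control decile, the seventh, the median ratio was 0.651 and the 90th percentile 0.802. Its percentile was 81.8 and 84.1 in the TBX5 KO lists and 73.4 and 67.1 in the control lists. The printed Vgll4 window was nevertheless covered over 94 and 71 bases in TBX5 KO and over 300 and 211 bases in control atria. It lay mostly between the 2 peaks that each TBX5 KO library had at this site. This site was singled out after its values were seen.

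The kinase genes kept most of their sites, but the counts were small. Genome-wide, 55.8% of the sites shared by control 1 and 2 had calls in every library. From 2 such sites at Lats1 and 10 at Lats2 no difference from that share can be read. Lats1 (chr10:7681200-7716461) had 2 sites in both control libraries, both called in all 4. Each of the 2 overlaps another gene, so neither can be assigned to Lats1 alone. Its start site (chr10:7680316-7682497), which also overlaps the gene Pcmt1, had a pileup over background of 6.92 and 5.74 in TBX5 KO and 10.6 and 6.72 in control atria, and the groups overlapped. The other, stronger site (chr10:7725454-7726642) overlaps Katna1, a microtubule-severing enzyme gene next to Lats1, and had 4.96 and 4.62 in TBX5 KO and 12.0 and 9.83 in control atria. Lats2 (chr14:57689662-57746212), which YAP and TEAD are themselves known to activate, had 1 control-only site of 10 (1.79% to 40.4%), at chr14:57740815-57741382 with a pileup of 2.67 and 2.63 in control, and 7 sites in all 4. Covered length at Lats2 was 10.9 and 14.5 kb in TBX5 KO and 19.3 and 12.8 kb in control atria, so the groups overlapped. Its median pileup ratio of 0.793 was the highest of the 9 genes, from 7 sites between 0.716 and 1.04. The medians of the genes were not matched for control rank, with which the ratio falls over all sites. The main start site (chr14:57743053-57747651), with the Lats2 window above, had a pileup of 8.42 and 8.80 in TBX5 KO and 12.6 and 11.5 in control atria. The gene Gm52140 overlaps this site and others of Lats2, so its share in them cannot be separated. A second, internal Lats2 start lay in a site called in both control libraries and TBX5 KO 1, and its window was covered over 300 and 0 bases in TBX5 KO and 300 and 110 bases in control atria.

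The 3 TBX5 KO-only sites were weak. They lay beside Tead2 at the end of Cd37 (chr7:45238694-45239485), inside Yap1 (chr9:7961179-7961689) and inside Lats2 (chr14:57719017-57719419). Their pileups over background in TBX5 KO 1 and 2 were 2.53 and 2.83, 2.43 and 2.68, and 3.27 and 2.76 in that order. None exceeded percentile 47.8 in a TBX5 KO list.

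Sites that kept their call in all 4 libraries were lower and more divided in the TBX5 KO libraries. Over the 70 such sites the median ratio of TBX5 KO to control pileup over background was 0.659, against 0.645 over all 38043 sites called in all 4. The pileup was lower in both TBX5 KO libraries at 58 of the 70, against 88.2% of all such sites, and higher in both at 0, against 0.676%. Covered length was lower in both at 44 and higher in both at 2, against 57.3% and 3.3%. The 70 sites held 122 and 114 peaks in TBX5 KO and 82 and 105 in control atria. Per site that was 1.74 and 1.63 in TBX5 KO and 1.17 and 1.5 in control atria, against 1.26 and 1.25 in TBX5 KO and 1.12 and 1.17 in control atria over all sites called in all 4. The summits of the 4 libraries lay within 250 bp of each other at 35 of the 70 sites, against 69.3% of all. These sites were wide, with 1357 and 1712 bp under peaks per site in TBX5 KO and 2510 and 2202 bp in control atria, against 1121 and 1274 bp in TBX5 KO and 1749 and 1617 bp in control atria over all.

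**Figure D5:**
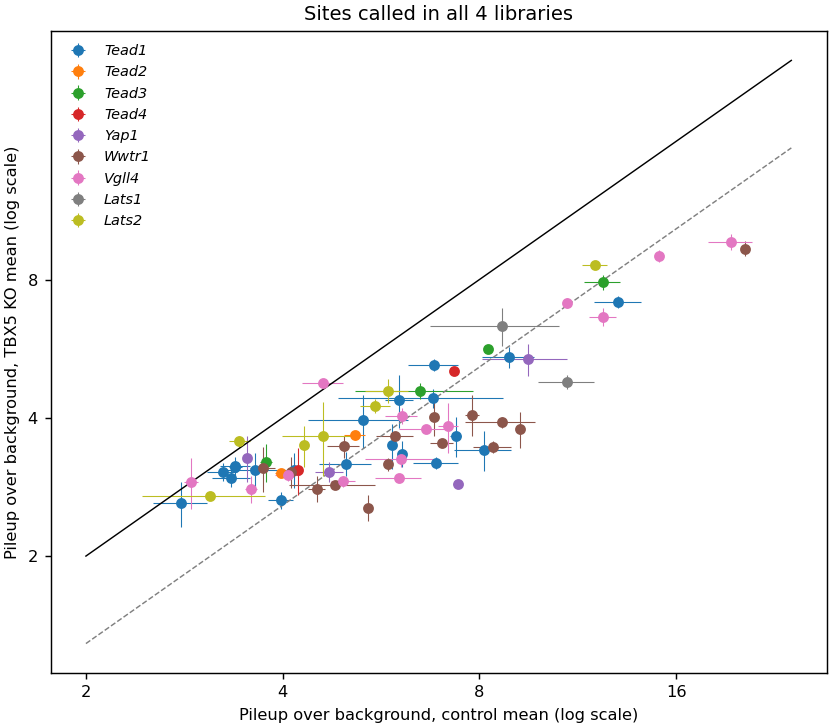
Pileup over background at the 70 sites called in all 4 libraries, as the mean of the TBX5 KO libraries (vertical, log scale) against the mean of the control libraries (horizontal, log scale), with bars from the lower to the higher library of each group. The solid line marks equal values and the dashed line the ratio of 0.645 of all sites; the Vgll4 start site at 4.77 lies by the solid line and the Wwtr1 start site at 9.34 far below it.

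The rank of these 70 sites within the lists depended on list length. Their median percentile of −log10 p was 62.4 and 64.3 in the TBX5 KO lists and 75.0 and 75.4 in the control lists. After all lists were shortened to the 61173 peaks of highest −log10 p, the medians over the 58 sites still called in all 4 were 65.7 and 63.8 in TBX5 KO and 67.4 and 67.1 in control lists. In lists of equal length the peaks at the 9 genes numbered more in TBX5 KO atria, with a ratio of 1.28, while the ratio of covered length was 0.660, against 0.668 genome-wide. The direction of the peak number thus turns with list length, and that of covered length does not.

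Other genes of the pathway had a share of control-only sites below that of all sites, and this difference was not tested. A further 32 Hippo genes were chosen with earlier results of these data known. Of their 231 sites in both control libraries 30 were control-only (13.0%, 9.25% to 17.9%, counting error only), against 24.9% of all such sites. Of the 231 sites 154 were in all 4, against 55.8% of all such sites. The 231 sites were not matched for place or control rank. Over all sites the control-only share was 7.22% at gene ends and 31.1% inside genes, and it fell with control rank. Without TBX5 KO 2, control 1 or control 2 the control-only count was 66, 80 and 92 (28.6%, 27.1% and 28.6%), against 37.8%, 36.0% and 39.9% of all sites. In lists of equal length it was 11 of 164, against 14.8% of all. The count was 16 of 112 at upstream kinases and scaffolds, 11 of 79 at polarity, junction and YAP-binding genes, 0 of 2 at other VGLL cofactors and 3 of 38 at known YAP-TEAD target genes. Covered length was lower in both TBX5 KO libraries at 20 of the 32, higher in both at 1 and without a site at 2. The shares among all protein-coding gene regions with a site were 71.5% lower and 1.67% higher. Wwc2, a gene of the KIBRA scaffold family, had the most control-only sites, 4 of 18. It was followed by Map4k4, an upstream kinase gene, with 3 of 23, and Frmd6, a scaffold gene, with 3 of 19. Ptpn14, which encodes a YAP-binding phosphatase, had 2 of 23 and the most sites in all 4, 17. Crim1 had 2 of 17 and Limd1, a gene of a LATS-binding LIM protein, 2 of 11. Fat1 and Amotl1, with 2 of 9 each, had as many control-only sites but fewer sites in all, and their shares were higher, at 22.2%. Of the 5 target genes, 2 were lower in covered length in both TBX5 KO libraries, against the same 71.5%, and 3 overlapped. The lower ones were Axl, with 11.4 and 11.8 kb in TBX5 KO and 18.52 and 14.96 kb in control atria, and Crim1, with 10.9 and 16.3 kb in TBX5 KO and 20.12 and 17.001 kb in control atria. Ccn2, a further matrix protein gene, had 9.74 and 8.91 kb in TBX5 KO and 8.88 and 9.23 kb in control atria. Ccn1, which encodes a matrix protein and is a standard readout of YAP activity, had 8.05 and 10.8 kb of peaks in TBX5 KO and 7.97 and 8.85 kb in control atria. Ankrd1, a stress-responsive gene of heart muscle, had 6.30 and 9.19 kb in TBX5 KO and 7.69 and 8.21 kb in control atria. In length the groups overlapped at Ccn1, Ccn2 and Ankrd1. Ankrd1 had 8 and 10 peaks in TBX5 KO and 7 and 7 in control atria. Ccn2 had 6 and 6 in TBX5 KO and 4 and 4 in control atria. Axl went the other way, with 13 and 13 peaks in TBX5 KO and 17 and 16 in control atria. Rassf1 and Amotl2 also had more peaks in both TBX5 KO libraries, while more of the 32 genes had fewer. Among all protein-coding gene regions with a site, 2.9% had more peaks in this way and 35.7% fewer. Ccn1, Ankrd1, Fat1 and Ptpn14 had 1 TBX5 KO-only site each. GGAATG stood in the promoter windows of 14 of the 27 further genes with an entry (51.9%), against 15.5% of the protein-coding genes in the table. Among genes with a window of at least 60% GC at a site called in all 4 libraries it was 9.99%. The list includes genes chosen as known YAP-TEAD targets, and this difference was not tested.

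The genes of most similar pattern were named by the distance over 8 values, the log2 of 1 plus the peaks and of 1 plus the covered kb in each of the 4 libraries. Nearest were Stard13 to Tead1 (distance 0.295), S100a3 to Tead3 (0.266) and Mob2 to Tead4 (0.488). Nearest to Yap1 was Gna13 (0.339), to Wwtr1 Lamc1 (0.329), to Lats2 Col27a1 (0.347) and to Vgll4 the cardiac factor gene Gata4 (0.436). At Gata4 the peaks numbered 30 and 34 in TBX5 KO and 29 and 30 in control atria, over 25.8 and 36.6 kb in TBX5 KO and 61.0 and 55.8 kb in control atria.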

How the data were processed

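CHD4 ChIP-seq of mouse atria was analysed from the authors' deposited peak lists, 1 for each of the 4 ChIP libraries (2 TBX5 KO, 2 control); the 4 input libraries were not analysed on their own. Per the submitters' processing notes, MACS2 and DiffBind were used with build mm10; the sources used here do not give an aligner, read filters or peak-calling thresholds. The deposited values of a peak are its fold, a ratio over local background, its −log10 p and −log10 q, and a score of 10 times −log10 q, all from the authors' caller; each list ended at −log10 q of 1.30 to 1.31.

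Peaks were merged at 1 bp of overlap and assigned to gene bodies plus 10 kb with a RefSeq table of GRCm38.p6, the assembly behind mm10 (21887 protein-coding genes; all 9 members and 32 further genes matched). Pileup and local background were solved from fold and −log10 p under a Poisson model, tested on simulated data, with the lowest background of each library (10.7 and 13.4 in TBX5 KO, 10.1 and 10.3 in control) as its genome background. They are estimates at the summit of the strongest peak of a site. The lists give no read totals, so depth is unknown. A site not called may be bound below threshold. The members and lists were chosen with earlier results of these data known. Named were the 9 members and their strongest, strongest control-only and TBX5 KO-only sites. Of the further genes, the 6 with the most control-only sites (ties to the gene with more sites), the 3 with the most sites in all 4 libraries and any with a TBX5 KO-only site were named, and the nearest gene of the 3 closest in pattern for members with at least 10 sites. Other sites were chosen after their values were seen. No genome sequence was used. Python 3.11.15 with SciPy 1.17.1 and pandas 2.3.3 was used.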

Additional observations from a re-analysis of the deposited data

How the results depend on the processing

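At −log10 q of at least 5 the 9 genes had 16 control-only sites of 82 (19.5%, against 29.1% of all sites) and 0 TBX5 KO-only sites of 46 (against 0.959%). With lists of equal length they had 7 control-only sites of 77 (9.09%, against 14.8% of all sites) and 8 TBX5 KO-only sites of 74 (10.8%, against 5.89%), the ratio of peak numbers turned to 1.28, and the further Hippo genes had 11 control-only sites. The difference in median percentile, TBX5 KO minus control, was −11.8, and it was −2.52 in lists of equal length and −9.49 when ranked by fold. With each site kept only for the gene whose end was nearest there was 1 TBX5 KO-only site of 69 (against 1.91%), and with peaks joined by summits there were 14 of 88 (15.9%, against 8.08%). With the groups exchanged, as the genotype labels have them, control-only and TBX5 KO-only sites numbered 3 and 26, and the ratios were 1.28 for peaks, 1.79 for covered length and 1.11 for width. Leaving out 1 library at a time gave 30 to 77 control-only and 4 to 12 TBX5 KO-only sites, and 41 to 92 control-only sites at the further genes (3 libraries meet such a pattern more easily than 4). The cause of the other changes was not tested. In lists of equal length the covered length ratio of Lats2 turned to 1.01, and control-only counts moved by over 1.5 times at 6 of the genes. The other 49 results of the whole gene set under an alternative kept their direction, or a count within 1.5 times. Among them the ratio of median width moved from 0.899 to 0.520 in lists of equal length (612 bp in TBX5 KO and 1177 bp in control, against 0.668 genome-wide).

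Replicate numbers are shared between the groups, and the differences between replicates were not correlated (r = −0.0146 over 38043 sites). An effect shared evenly by all sites would not show in this correlation, so it cannot tell whether same-numbered libraries were paired. With the replicate block, same-numbered pairs gave 26 control-only sites by construction, and ratios of 0.781 for peaks, 0.554 for covered length, 0.898 for width and 0.664 for pileup. Covered length differed between the pairs, at 0.437 and 0.703. Alternatives for the pileup, the further genes and single genes were chosen after seeing the data. Read depth is unknown, and 2 libraries a group limit each comparison.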
